A study of Mus musculus with 24 samples.

Results

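Hedgehog ligands are secreted proteins that are read by the receptor Patched (Ptch1) with the help of the coreceptors Boc, Cdon and Gas1. Ligand binding frees the membrane protein Smoothened (Smo), which acts in the primary cilium on the transcription factors Gli1, Gli2 and Gli3. Gli2 is the main activator, Gli3 acts largely as a repressor when the signal is off, and Gli1, Ptch1 and the secreted ligand trap Hhip are themselves induced by the signal. In the growing hair follicle the ligand comes from the epithelium, and the dermal papilla (DP), the mesenchymal cell cluster at the follicle base, is a known receiver. These 9 genes, taken by their symbols and not by a threshold on their values, were followed among the 25755 genes of the files in all 24 libraries.

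RNA was sequenced from DP cells labelled with YFP and sorted from the skin of single mice, 3 controls and 3 dM1/2 double mutants at each of P20 and P60 (telogen, the resting phase of the hair cycle) and P24 and P28 (early and mid anagen, the growth phase). The dM1/2 mice were Cor-cre/+; Hdac1 Flox/Flox; Hdac2 Flox/Flox, so that both histone deacetylase genes were to be deleted where the Corin-Cre line is active. Control mice had the same Cor-cre/+ driver and were not free of floxed alleles, since at least 1 of the Hdac1 and Hdac2 genes was floxed, and a control could be homozygous at 1 of them. Which genotype a given control library came from is not stated. The floxed lines were on C57BL/6J and the Cre line on FVB. By the study's methods P20 skin came from females, anagen skin from males and second telogen skin from either sex, so sex cannot be told apart from stage here. The values are normalized reads, that is read counts divided by a size factor for each library. Reads on genes ranged from 8171944 to 13369732 per library in telogen and from 35469841 to 49331751 in anagen, so stage also moved with depth.

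Hdac1 was lower in dM1/2 at P24, where the controls held 675, 668 and 668 normalized reads and the mutants 209, 188 and 116 (log2 fold change -2.01, limma adjusted p = 0.00167), but it did not pass the test at the other 3 ages. At P28 the library labelled P28 control 3 held 105 reads of Hdac1, below the 126 to 190 of the mutants. Hdac2 passed at no age, and reads of exons outside the floxed segments can still be counted for both genes. The sum of 11 DP markers depended on the stage. It ranged from 13887 to 19023 normalized reads at P60, below the other fibroblast sum of the same libraries, and Sox2 was as low as 17.7 there. At P24 it ranged from 273311 to 335170 in controls and from 138900 to 171362 in dM1/2. At P28 this sum was 249549, 137503 and 402576 in the 3 libraries labelled control and 110731 to 125349 in dM1/2. The sum of 4 markers of other fibroblasts was 14794, 21873 and 2509 in those P28 controls, so that P28 control 2 and the library labelled P28 control 3 stand at opposite ends of both sums. Marker sums of keratinocytes (10 genes), melanocytes (6 genes), endothelial cells (5 genes) and immune cells (5 genes) each reached at most 1280 normalized reads in a library, with Krt17, Dsg3 or Tyrp1 at 0 in all 3 libraries of some groups. The sum of 6 hair matrix markers was 442 to 693 in P24 controls and 1031 to 1353 in P24 dM1/2, but Msx2 alone carried it (means of 519 and 1172), while Krt71, Krt25 and Tchh had lower means in dM1/2 and Krt35 was at 0 there. The sum of 5 dermal sheath and smooth muscle markers ranged from 1258 to 10022 over all libraries. In bulk RNA, fewer cells of a type and less RNA per cell cannot be told apart. The DP sum holds Fgf7, Fgf10 and Rspo3, which the study reported as reduced within the mutant DP by in situ hybridization. The study also counted more DP cells per follicle in anagen mutants. Vcan was the largest part of the sum at P24, with means of 168490 in controls and 73468 in dM1/2. Lower DP sums in anagen mutants are therefore not read here as fewer DP cells.

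The start sites of Gli2 and Hhip, the members with the largest falls in dM1/2 anagen, are shown because Gli proteins bind a known motif, GACCACCCA. The 250 bases before the RefSeq start sites (GRCm38.p6, minus strand, written from upstream to the start) lie at chr1:119053620-119053869 for Gli2 and at chr8:80058009-80058258 for Hhip, and capitals mark the motif core CCACCC or its reverse complement GGGTGG.
Gli2: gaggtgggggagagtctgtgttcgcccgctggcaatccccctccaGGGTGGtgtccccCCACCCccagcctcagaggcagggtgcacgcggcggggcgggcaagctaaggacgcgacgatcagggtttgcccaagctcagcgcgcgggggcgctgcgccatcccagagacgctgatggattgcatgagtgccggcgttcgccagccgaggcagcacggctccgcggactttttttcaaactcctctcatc
Hhip: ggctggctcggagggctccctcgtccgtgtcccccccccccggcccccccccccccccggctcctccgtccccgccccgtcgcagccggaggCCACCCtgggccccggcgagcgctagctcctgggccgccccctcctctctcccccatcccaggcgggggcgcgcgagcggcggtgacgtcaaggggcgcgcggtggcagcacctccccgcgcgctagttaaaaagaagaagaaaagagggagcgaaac
The full motif was in none of the 7 members with a window, searched on both strands, and in 74 of 32851 windows of this length (0.225%). The core, which the full motif contains, was in 4 of the 7 members and in 28.1% of all windows. Gli1 and Boc were not among the windows, and these matches describe letters only.

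The first question was how the pathway genes follow the hair cycle in control DP cells. All 9 members varied over the 4 ages (limma F test over 12 control libraries, adjusted p from 8.58e-07 to 0.0400), against 49% of the 14066 genes tested. With 1 library left out 7 to 9 members were called, and Cdon was the member lost most often, with Smo lost besides without P60 control 2. Hhip, the secreted inhibitor, changed the most. It held 1328, 966 and 1351 normalized reads in the P20 controls, rose to 32552, 38353 and 35083 at P24 and to 26581, 14746 and 42397 at P28, and was back at 846, 999 and 915 at P60. The anagen and telogen libraries did not overlap, and the mean at P24 was 29.1 times that at P20 and 38.4 times that at P60. Ptch1, the receptor, held 3677, 4991 and 6287 reads at P20, 25814, 22867 and 48546 at P24, 9730, 7523 and 16223 at P28 and 2689, 2791 and 3281 at P60. Its P24 mean was 6.50 times the P20 mean, and every anagen control was above every telogen control.

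Averaged over the ages of each stage, Hhip was higher in anagen controls by 4.83 on the log2 scale (SE 0.21) and Ptch1 by 2.26 (SE 0.23). On this average the other members that rose were Gli1 (0.77), Gli2 (0.60), Gli3 (0.59) and Smo (0.36), but their single ages overlapped between stages. Control Gli2 at P28 (1779 to 2485 reads) overlapped P20 (1642 to 2177) and P60 (1809 to 2050). Control Gli3 at P60 (2638 to 3732) overlapped P24 (3402 to 3753) and P28 (2698 to 4011). Control Smo at P28 (3344 to 4632) overlapped P20 (3321 to 3779). The 3 coreceptors fell, Gas1 by 2.08, Cdon by 1.99 and Boc by 0.85 on the log2 scale. Thus 9 of 9 members were called between anagen and telogen in controls (limma adjusted p up to 0.00884), where 45.6% of 14066 genes were, 23.8% higher and 21.9% lower in anagen. The DP marker sum moved with the stage as well, from 13912 to 27354 in telogen controls to 137503 to 402576 in anagen controls. The other fibroblast sum was 32064 to 42654 in P60 controls. In P20 controls it was 16691 to 26559, which overlapped the 2509 to 21873 of anagen controls. The part of both sums in these stage changes was not tested. The Gas1 controls held 8415, 6344 and 6961 reads at P20, 1985, 1822 and 1243 at P24, 2482, 3764 and 935 at P28 and 7246, 10217 and 8279 at P60, without overlap between the stages. For Cdon, the P28 controls held 1866, 2617 and 209 reads, and the lowest of them is the library labelled P28 control 3. Cdon and Gas1 were both low in that library, as was the other fibroblast sum, whose part in the result was not tested. Within anagen, Gli1 held 2347, 3007 and 4576 reads in the P24 controls but 1241, 893 and 1532 at P28, close to the 1288, 1023 and 1391 of P20.

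**Figure D1:**
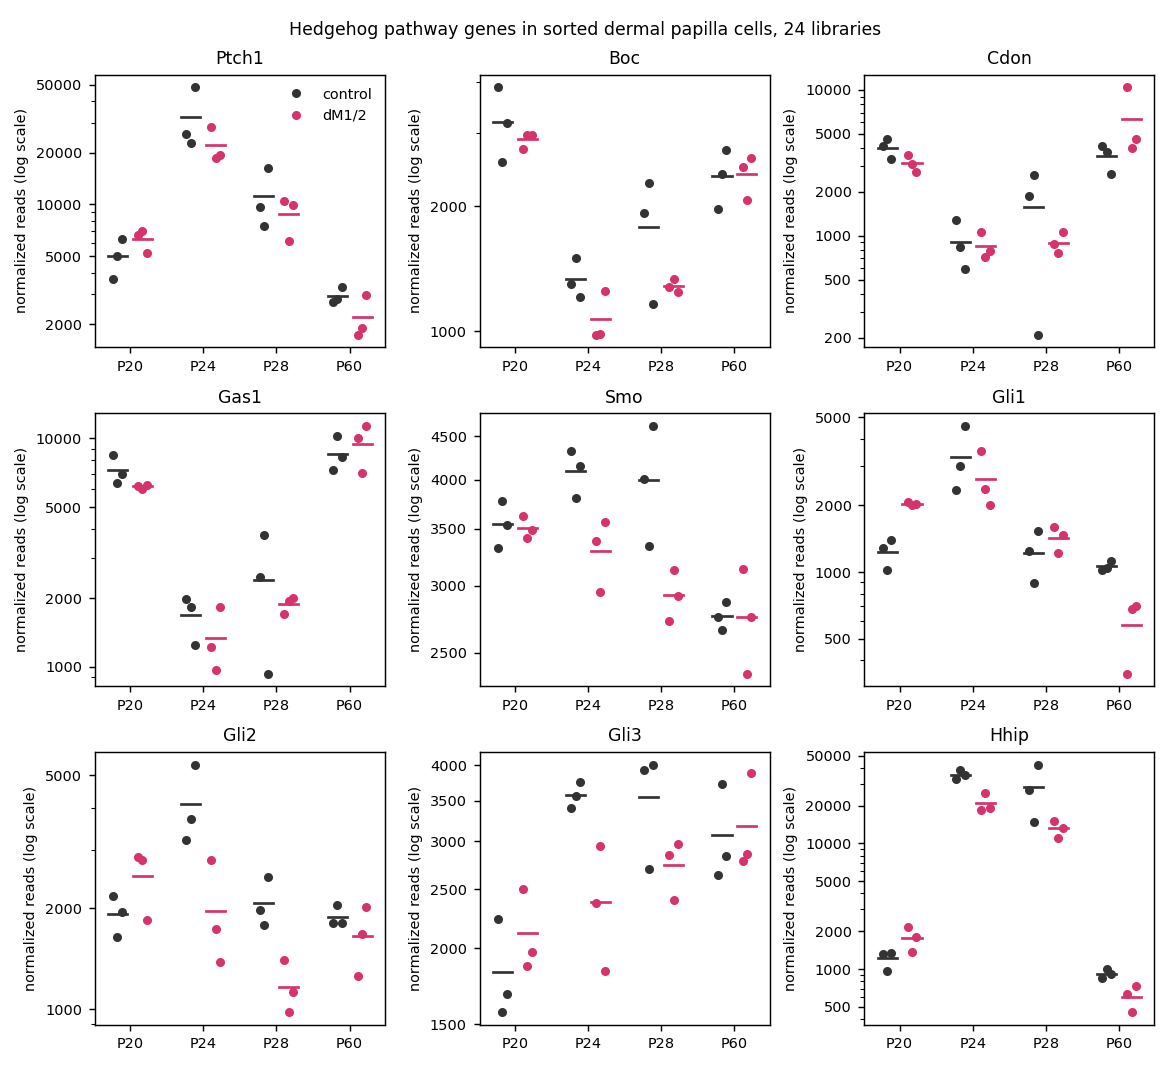
Normalized reads of the 9 members (log scale) in each of the 24 libraries by age, with controls in dark grey and dM1/2 in pink, and a bar at the mean of 3 libraries. The means of Hhip and Ptch1 are highest at P24 in both genotypes, whereas those of Gas1 and Cdon are highest at P20 or P60. The P28 controls of Hhip (14746 to 42397) span its P24 controls (32552 to 38353). At P24 the dM1/2 libraries lie below the controls for Gli2, Gli3, Hhip and Smo.

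Per kilobase of exon, which allows genes to be compared, the order of the members turned over with the stage. In P20 controls Gas1 led with 2445 ± 359 normalized reads per kb (SD, n = 3), and Hhip was last with 134 ± 24. Boc, Smo and Cdon followed Gas1 with 720, 631 and 521 per kb, and neighbours in this order overlapped in their ranges from Boc down to Gli3. In P24 controls Hhip led with 3893 ± 320 per kb, followed by Ptch1 with 2285 ± 991, and their ranges did not overlap each other or those of the genes below. Smo, Gli1, Gli2 and Gas1 lay between 729 and 568 per kb with overlapping neighbours, and Cdon was last with 117 ± 45. In P60 controls Gas1 was again first with 2898 ± 509 per kb and Hhip last with 101 ± 8.4. The same genes led in dM1/2, Gas1 at P20 and P60 and Hhip at P24 and P28.

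In dM1/2 the stage difference, averaged over the ages of each stage, was called in the same direction as in controls for 6 of 9 members. It was not called for the other 3. Hhip (log2 4.02, SE 0.15), Ptch1 (1.90, SE 0.18) and Gli1 (0.85, SE 0.18) were higher in anagen, and Cdon fell by 2.29, Gas1 by 2.28 and Boc by 1.17. These 6 calls, 3 in each direction, compare with 62.1% of the 14277 genes tested in this genotype, 32.7% higher and 29.4% lower. For Gli1 the single ages did not follow the stage, since the P28 mutants (1220 to 1593 reads) lay below the P20 mutants (2005 to 2076). The P60 mutants held 348 to 706 reads of Gli1. For Ptch1 the P28 mutants (6092 to 10443 reads) overlapped the P20 mutants (5225 to 7027). The values of Smo (-0.0003), Gli3 (-0.02) and Gli2 (-0.43) did not pass (limma adjusted p = 0.998, 0.893 and 0.061). Gli2 was called lower in anagen in 6 of 21 alternatives, among them DESeq2 (adjusted p = 0.0494) and the single fit over 24 libraries (0.0363), whereas in controls it was higher. The 95% interval of the stage difference in dM1/2 was -0.19 to 0.19 for Smo and -0.32 to 0.27 for Gli3, against 0.16 to 0.56 and 0.29 to 0.89 in controls.

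The difference itself was tested over the 24 libraries, as the dM1/2 effect in anagen minus that in telogen. It was below 0 for Gli2 by 1.03 (SE 0.25, limma adjusted p = 0.00381), for Hhip by 0.82 (SE 0.27, adjusted p = 0.0282), for Gli3 by 0.61 (SE 0.20, adjusted p = 0.0247) and for Smo by 0.36 (SE 0.12, adjusted p = 0.0290). Thus 4 of 9 members were called lower, where 14.1% of 14243 genes were called lower and 30.2% in either direction. Gli1 (0.07), Gas1 (-0.20), Cdon (-0.30), Boc (-0.32) and Ptch1 (-0.36) did not pass. The telogen term averages P20 and P60, where effects differed in sign, among them those of Hhip (0.54 and -0.63) and Gli1 (0.74 and -0.95). The P60 effect on Hhip lay near its P24 effect of -0.76, so the Hhip call does not set anagen apart from P60. The Gli2 call held in all 32 alternatives tried, while Gli3 was called in 31, Hhip in 29 and Smo in 26, with every loss at an adjusted p between 0.0501 and 0.0569. The median of the 9 members was -0.36 and that of all genes -0.03. This test uses the same libraries as the comparisons at single ages and is not independent of them.

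The genotype effect at each age is given next by the role of the members. At P20 no member was called, where 0.433% of 13845 genes were, although 3 had an unadjusted p under 0.05. Gli1, the Gli factor whose own expression reads out the signal, held 1288, 1023 and 1391 normalized reads in controls and 2076, 2005 and 2034 in dM1/2. The groups did not overlap, and the log2 fold change of 0.74 (SE 0.13) had a limma adjusted p of 0.0521. It was called in 8 of 15 alternatives, among them edgeR and DESeq2, with adjusted p from 0.000646 to 0.235. Hhip held 1328, 966 and 1351 reads against 2153, 1365 and 1816 (log2 0.54, SE 0.19, adjusted p = 0.167), also without overlap. Every dM1/2 library was above every control for these 2 members and for 12.1% of all genes, and below every control for 1 member, Gas1, and for 13.3%. The Gas1 mutants held 6212, 6024 and 6244 reads against 6344 to 8415 in controls (log2 -0.22, adjusted p = 0.357). The remaining members had log2 fold changes from -0.35 (Cdon) to 0.36 (Gli2 and Ptch1). The DP marker sum was 25184 to 27354 in P20 controls and 30313 to 44597 in dM1/2, the other fibroblast sum was 16691 to 26559 and 10912 to 14357, and their part in the result was not tested.

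At P24, in early anagen, 3 of 9 members were called and all 3 were lower in dM1/2, where 26.6% of 14028 genes were called and 11.8% were called lower. The Gli activator Gli2 held 3205, 3710 and 5385 normalized reads in controls and 2790, 1741 and 1384 in dM1/2. It was 2.12-fold lower (log2 -1.08, SE 0.29, limma adjusted p = 0.0292). Gli3, the Gli factor known mainly as a repressor, held 3402, 3562 and 3753 reads against 2370, 2952 and 1837, a 1.52-fold lower level (log2 -0.61, SE 0.18, adjusted p = 0.0402). Hhip held 18614, 25020 and 19283 reads in dM1/2, below the 32552 to 38353 of the controls (log2 -0.76, SE 0.20, adjusted p = 0.0287). In these 3 members and in Smo the groups did not overlap, which 21% of all genes shared in this direction. Smo, the signal transducer, held 4324, 3807 and 4154 reads against 3385, 2947 and 3562 (log2 -0.31, adjusted p = 0.103). Ptch1 held 28304, 18726 and 19461 reads in dM1/2 and 22867 to 48546 in controls (log2 -0.49, SE 0.33, adjusted p = 0.306). Gli1 held 3532, 2364 and 2010 reads in dM1/2 and 2347 to 4576 in controls (log2 -0.31, SE 0.29, adjusted p = 0.460). Both targets thus overlapped between the groups, and the 95% interval of their difference was -1.25 to 0.27 for Ptch1 and -0.98 to 0.35 for Gli1.

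The coreceptors did not pass the test at P24, with log2 fold changes of -0.35 for Gas1, -0.32 for Boc and -0.03 for Cdon (adjusted p = 0.362, 0.137 and 0.955). The median of the 9 members was -0.35, against -0.01 over all genes. The P24 calls lay near the threshold. Over 15 alternatives Gli2 was called in 10, Hhip in 9 and Gli3 in 7. Gli3 was lost in both edgeR fits (adjusted p = 0.0558 and 0.0583) and Hhip without a filter on low values (adjusted p = 0.0799). No member was called without P24 control 2 or without P24 dM1/2 3, 1 was called without P24 control 1 (Gli2), P24 control 3 (Hhip) or P24 dM1/2 1 (Gli2), and 2 without P24 dM1/2 2 (Gli3 and Hhip). Of the 11 DP markers, 5 were lower and 1 was higher in dM1/2 at P24, their median was -0.45, and their part in the result was not tested.

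**Figure D2:**
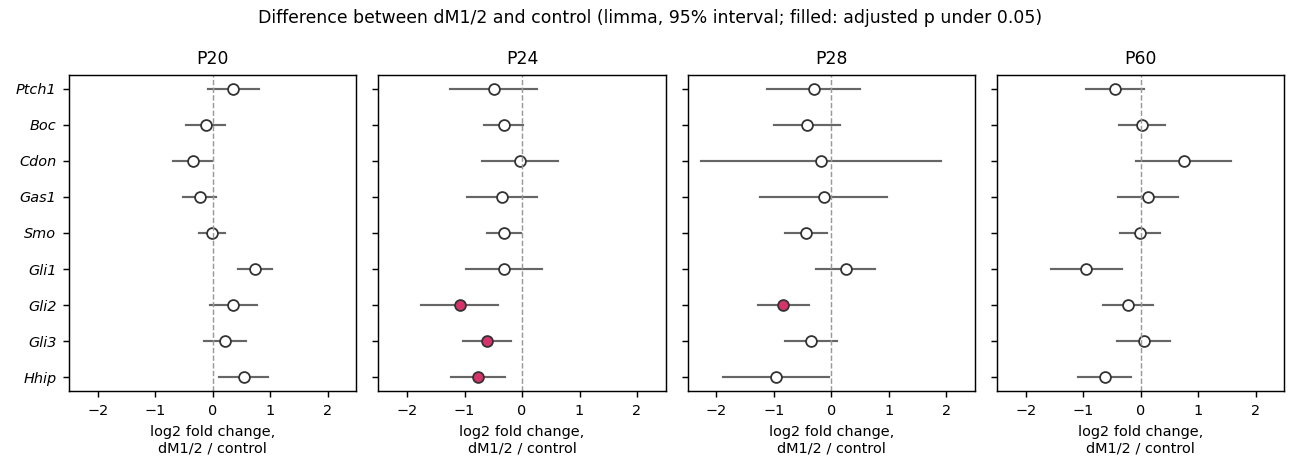
Log2 fold change of each member between dM1/2 and control at the 4 ages (x axis) with its 95% interval from limma, filled where the adjusted p was under 0.05. Gli2, Gli3 and Hhip are filled at P24 and Gli2 alone at P28, and Gli1 lies above 0 at P20 (0.74) and below 0 at P60 (-0.95).

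At P28, in mid anagen, Gli2 was the 1 member called, where 35.5% of 14126 genes were called and 15.6% were called lower. It held 1985, 1779 and 2485 normalized reads in controls and 1403, 977 and 1122 in dM1/2, a 1.79-fold lower level (log2 -0.84, SE 0.19, limma adjusted p = 0.0133). Smo held 4007, 3344 and 4632 reads against 2722, 3129 and 2919 (log2 -0.44, SE 0.15, adjusted p = 0.0648). Both had every mutant below every control, as did 23.3% of genes. Hhip held 15085, 11107 and 13357 reads in dM1/2, and its controls spread from 14746 to 42397, so that the groups overlapped (log2 -0.96, SE 0.39, adjusted p = 0.0985). Gli3 (-0.36), Ptch1 (-0.30) and Gli1 (0.25) did not pass either, and the Gli1 mutants held 1593, 1220 and 1464 reads. The median of the members was -0.36 and that of all genes 0.00.

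The Gli2 call at P28 held in 13 of 15 alternatives, with log2 values from -0.98 to -0.70. Which other members were called depended on single libraries. Without P28 control 2, which had the lowest DP marker and the highest other fibroblast sum, 4 members were called lower, Gli2 (-0.94), Hhip (-1.36), Gli3 (-0.54) and Smo (-0.56). Without the library labelled P28 control 3 a different set of 4 was called lower, Gli2 (-0.70) with the coreceptors Cdon (-1.31), Gas1 (-0.71) and Boc (-0.70). In that fit the 2 controls left held 1866 and 2617 reads of Cdon and the mutants 872, 760 and 1060. The share of all genes called in these fits is not given here, so the counts are not read as results about the members. With all 6 libraries it was 35.5%, and 10 to 22 of the other pathway genes were called with 1 library left out. With all 6 libraries the Cdon difference was -0.18 with a 95% interval of -2.27 to 1.90. No member was called without P28 dM1/2 2 or without P28 dM1/2 3, where Gli2 had an adjusted p of 0.0551 and 0.0524. The part of the marker sums in these differences was not tested.

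**Figure D3:**
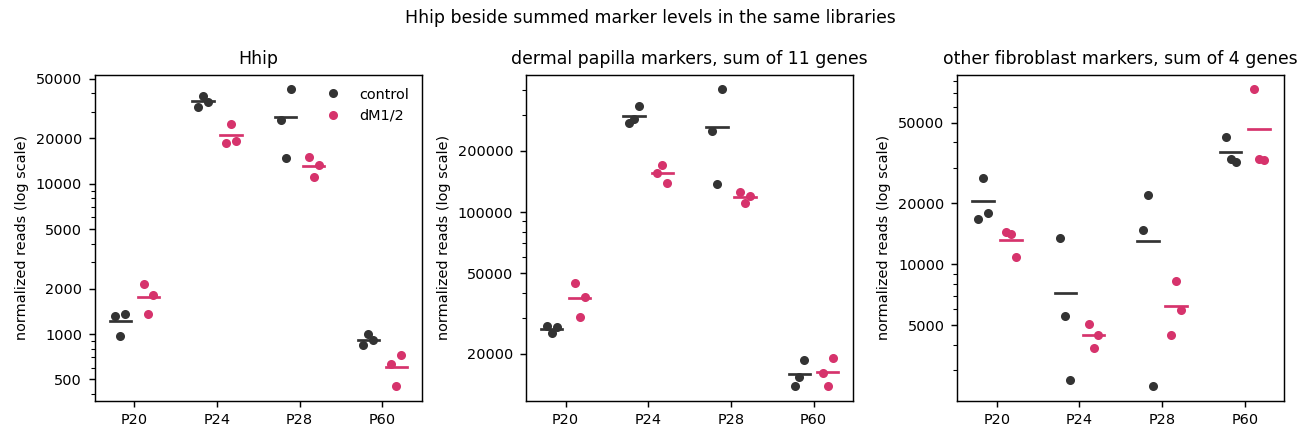
Normalized reads of Hhip (left), of 11 DP markers summed (middle) and of 4 other fibroblast markers summed (right), on log scales, in each library by age, with a bar at the mean of 3 libraries. Among the P28 controls, Hhip and the DP marker sum are highest in the library labelled control 3 and lowest in control 2, and the other fibroblast sum has the reverse order.

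At P60, in the second telogen, no member was called, and neither was any other of the 14042 genes tested by limma (0%), of which 525 had an unadjusted p under 0.05. Among the members this held for 2, and edgeR and DESeq2 called none of the members, although DESeq2 called 26 of all genes. Gli1 held 1026, 1046 and 1118 normalized reads in controls and 348, 679 and 706 in dM1/2 (log2 -0.95, SE 0.27, adjusted p = 0.986). Hhip held 846, 999 and 915 reads against 634, 453 and 730 (log2 -0.63, SE 0.20, adjusted p = 0.986). For both, every mutant was below every control, as for 4.08% of genes. At this age the 11 DP markers had a median log2 fold change of -0.65 with none called, and the dermal sheath sum was 9031 to 9406 in controls and 3562, 7613 and 8333 in dM1/2 without overlap. The part of these markers in the result was not tested. Cdon held 10487, 3973 and 4624 reads in dM1/2 against 2651 to 4099 in controls (log2 0.75, SE 0.36, adjusted p = 0.986). The highest of these is P60 dM1/2 1, which also had the lowest Gli1 and the highest other fibroblast sum, 72932 against 32064 to 42654 in the other 5 libraries of this age, and the part of that sum was not tested. Ptch1 (-0.44, limma adjusted p = 0.986) and Gli2 (-0.22) were below 0 without passing, and Smo, Gli3, Boc and Gas1 had log2 fold changes between -0.01 and 0.13.

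Gli1 was thus above its controls in every dM1/2 library at P20 and below them in every one at P60. The difference of the 2 effects, tested over the 12 telogen libraries, was -1.68 (SE 0.32) with a limma adjusted p of 0.215, and for Hhip it was -1.17 (SE 0.29, adjusted p = 0.220). No gene was called in this test (0% of 14037), 4 members had an unadjusted p under 0.05, edgeR called no member and DESeq2 called both Gli1 and Hhip. For Gli1 the adjusted p ranged from 0.00125 (DESeq2) to 0.520 over 21 alternatives and passed in 4, among them the fits without P60 dM1/2 1 (0.0236) and without P60 dM1/2 3 (0.0441). This comparison was chosen after the values had been seen.

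Next, early and mid anagen were compared within each genotype. In controls no member was called (1.46% of 13966 genes were), 3 had an unadjusted p under 0.05, edgeR called none and DESeq2 called Ptch1, Gli1 and Gli2. Every P28 control was below every P24 control for these 3 members, as for 14.9% of genes, with log2 values of -1.53 (SE 0.40), -1.42 (SE 0.30) and -0.96 (SE 0.23) and limma adjusted p of 0.115, 0.0746 and 0.0946. In dM1/2 Ptch1 was the 1 member called (2.67% of 14032 genes were, and 0.983% were called lower). It went from 28304, 18726 and 19461 normalized reads to 10443, 6092 and 9906 (log2 -1.34, SE 0.25, adjusted p = 0.0310). The call was lost without P24 dM1/2 1, P28 dM1/2 2 or P28 dM1/2 3, and 3 members were called without P24 dM1/2 3 (Ptch1, Gli1 and Gas1). Gli1 (-0.85, adjusted p = 0.0702) and Hhip (-0.67, adjusted p = 0.115) did not pass, but with Ptch1 they were the 3 members below their P24 range in every P28 mutant, as were 11.3% of genes. The change did not differ detectably between the genotypes for any member (0 called by limma, edgeR or DESeq2, 0 with an unadjusted p under 0.05, and 0.707% of 14139 genes called by limma). For Gli1 the 95% interval of that difference was -0.31 to 1.43.

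The ligands were almost absent from the sorted cells. Shh had no read in 22 of 24 libraries and 2 reads in each of the other 2, Ihh had at most 11 reads and Dhh at most 16, where a count of 0 allows up to 3 reads. Among 48 further genes of the pathway in the files, 42 passed the filter of a mean of 10 normalized reads at each age. At P20, 2 of these were called, both higher in dM1/2, the ligand release factor Scube3 (0.94, SE 0.16) and the transcription factor Sox18 (1.74, SE 0.16), and none was called at P60 (3 had an unadjusted p under 0.05). At P24, 16 were called, 8 in each direction, and at P28 18, with 10 higher and 8 lower. Their shares, 16 and 18 of 42, compare with the 26.6% and 35.5% of all genes called. Among the higher calls, those of Disp2, Mycn and Foxf1 are of genes that passed the filter largely through the mutants. These are the same libraries that give the values of the 9 members.

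The release genes moved in both directions. Scube3 was lower in dM1/2 at P24 (log2 -1.91) and at P28 (-3.31), as was Scube1 (-1.03 and -2.34). The P28 controls held 31753 to 74228 normalized reads of Scube3 and the mutants 3748 to 6499. Disp2, of the Dispatched family of ligand exporters, rose by 3.34 and 5.58, from 3.0 to 9.5 reads in P28 controls to 255 to 277 in dM1/2. In the fit of the anagen controls alone Disp2 did not reach the filter, so it entered these fits largely through the mutants. Disp1 at P24 (-0.51) and the ligand acyltransferase Hhat at P28 (-0.53) were also called lower. The glypican Gpc3 was called lower at P28 (-0.98).

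Between Smo and Gli most genes did not pass. Of 16, 2 were called at P24 and 4 at P28, below the 26.6% and 35.5% of all genes called. The kinase Stk36 was higher at both ages (1.37 and 1.35) and Evc, a ciliary partner of Smo, lower (-0.71 and -0.59), while at P28 Efcab7 was higher (1.17) and Spop lower (-0.37). Sufu, which holds the Gli proteins in the cytoplasm, held 1059 to 1255 reads in P24 mutants and 1071 to 1113 in controls and was called at no age. Of 10 genes of ciliary transport, 3 were called at each anagen age, near these shares of all genes. Ift88 was higher (0.89 and 1.09) and Ift172 lower (-0.81 and -0.91) at both ages, with Tulp3 lower at P24 (-0.57) and Rab23 lower at P28 (-0.74).

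The last group was genes listed as Hedgehog targets in other tissues. Of 8 tested, 5 were higher and 1 (Bcl2, -0.86) was lower in dM1/2 at P24, and 6 were higher and 0 lower at P28, with medians of 1.33 and 1.79. Over all genes 14.8% were called higher at P24 and 20% at P28. Mycn and Foxf1 did not reach the filter in the fit of the anagen controls alone. Their entry here rests largely on the mutants, where they are high, so their part in these counts and medians is not a result. Ccnd2 and Sox18 at P24 and Nog and Bcl2 at P28 did not pass, and Foxf2 and Foxl1 were too low to be tested at these ages. Mycn, a cell cycle transcription factor, rose from 9.0 to 13.9 normalized reads in P24 controls to 127 to 175 in dM1/2 (log2 3.46, SE 0.28) and from 0.8 to 7.0 to 251 to 280 at P28 (5.91, SE 0.57). Ccnd1, the gene of cyclin D1, rose by 3.32 and 3.72, and the transcription factor gene Foxf1 by 2.86 and 4.60, although Foxf1 had at most 12.6 reads in any anagen control. Nog at P24 (1.64), Sox18 at P28 (1.97) and Snai1 at both ages were also called.

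**Figure D4:**
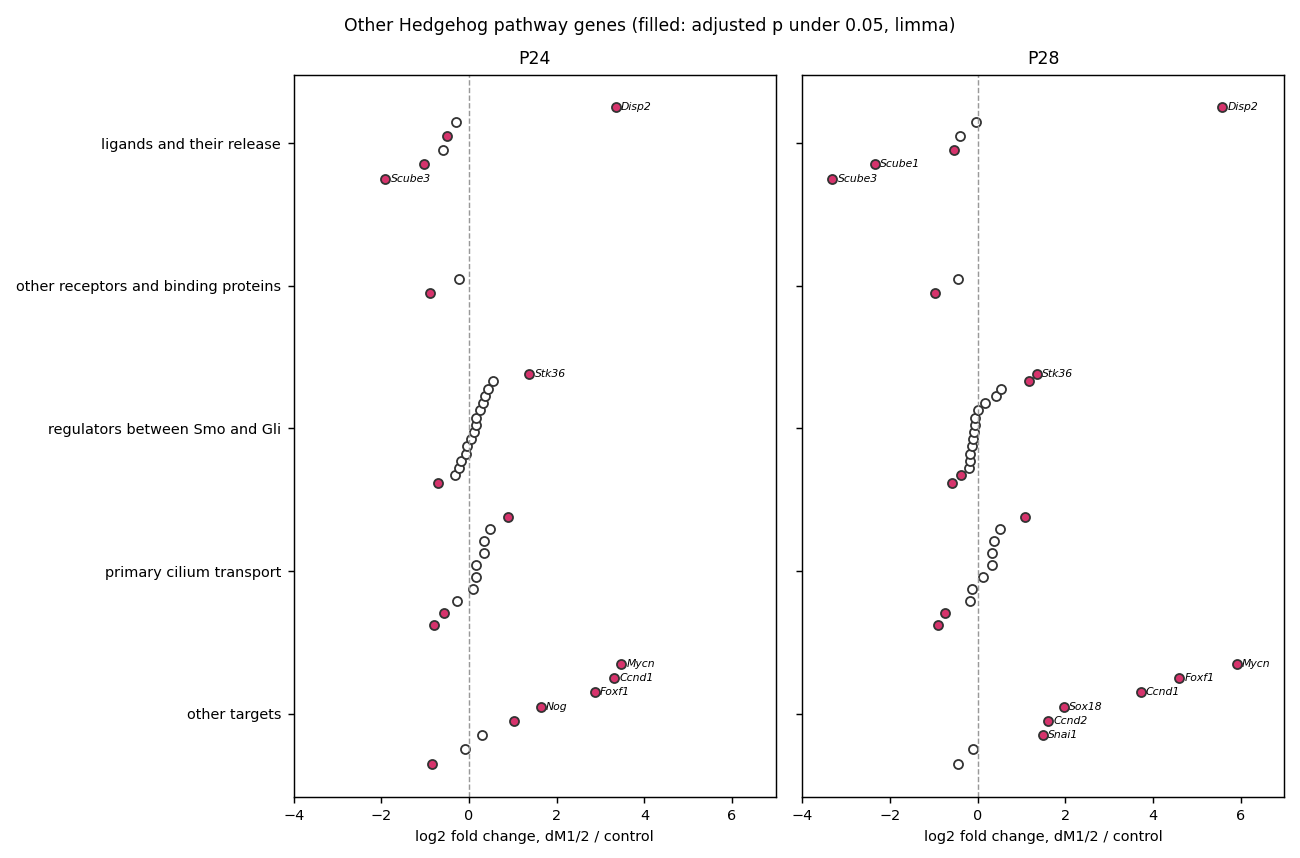
Log2 fold change between dM1/2 and control (x axis) at P24 and P28 for the tested pathway genes outside the 9 members, grouped by role (y axis), filled where the limma adjusted p was under 0.05, with names for called genes past 1.3 in either direction. Mycn, Ccnd1, Foxf1 and Disp2 lie to the right at both ages and Scube3 to the left.

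Over the 24 libraries the genes most like Ptch1 were Myrf (r = 0.962), Ndp and Hey1, those most like Gli1 were Tex15 (0.905), Fbxw7 and Trps1, those most like Hhip were Hey2 (0.983) and Btn2a2, and those most like Gas1 were Emp1 (0.987), Ltbp4 and Mvp, by Pearson's r of log2 values among 14243 genes. These libraries share stage, sex and depth, which differ between the groups. Among the members, Ptch1 and Hhip had an r of 0.898 and Gas1 and Hhip of -0.938. After the mean of each group of 3 libraries was taken off, the highest values were those of Boc with Gas1 (0.869), Gli1 with Gli2 (0.840) and Cdon with Gas1 (0.791), and that of Ptch1 with Gli1 was 0.733. Ptch1 with Hhip fell to 0.432. Among the P28 controls Boc, Cdon and Gas1 were each highest in control 2 and lowest in the library labelled control 3. The other fibroblast sum had the same order, and its part in these correlations was not tested.

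The members were read from the files' gene counts. By the GENCODE M21 annotation of GRCm38, exons of Gli1 (chromosome 10, 127329882 to 127341974, minus strand) overlap those of Arhgap9 and of an antisense gene on the other strand, and exons of Gli3, Gas1 and Hhip overlap a noncoding gene on the other strand. The strand setting of the counting is not given in the sources used here. Arhgap9 held at most 24.9 normalized reads in any library, whereas Gli1 held at least 348. The antisense gene was not analysed here.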

How the data were processed

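The authors depleted ribosomal RNA and built strand-keeping libraries from sorted DP cells. They trimmed reads with Trimmomatic, aligned them to mm10 (GRCm38.p4) with TopHat2 and counted them per gene with HTSeq. The deposited signal is a count of reads per gene after division by a DESeq2 size factor, which the authors set over all 24 libraries together. Their own fold changes and p-values were also deposited and were not used. Dividing by the value of a single read gave back whole reads for 100% of 411092 values above 0 (tolerance 0.01). Libraries of a group differed by more than counting noise in every pair.

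The 9 genes and all gene lists were chosen with earlier results of these data known. Genes were named by a rule: all members, Shh, Ihh, Dhh and Sufu, called genes at P20 or P60, up to 3 largest called changes of each list at P24 and P28, and the 3 genes most like each of 4 members. Some genes that the rule names are not reported here. Called genes of a list beyond these were named after their values were seen. Differences were tested by limma 3.58.1 (trended variance, two-sided) after a log2 transform with a pseudocount of 1. Genes entered a fit if their mean in it reached 10 normalized reads, with Benjamini-Hochberg adjustment over all genes tested and a threshold of 0.05. Fold changes are on that scale. Libraries were grouped by the age and genotype of the labels. edgeR 4.0.16 and DESeq2 1.42.0 on the recovered reads were alternatives, as were a pseudocount of 10, other filters, other normalization, a replicate block, a single fit and each library left out. The tests between stages within a genotype and between P20 and P60 were added after the data had been seen. Exon lengths came from GENCODE M21, which 25508 of 25755 genes matched by identifier, and promoter windows from RefSeq. The fits were tested on simulated data. Krt85 was not in the files, and Grk2 was read under its older symbol Adrbk1.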

Additional observations from a re-analysis of the deposited data

Results flagged for a closer look

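The effect of dM1/2 differed between anagen and telogen for 4 members by a test of the difference itself over 24 libraries. In this test 30.2% of 14243 genes were called and 14.1% were called lower. On the log2 scale the effect in anagen minus that in telogen was -1.03 for Gli2, -0.82 for Hhip, -0.61 for Gli3 and -0.36 for Smo. The telogen term averages P20 and P60, where the Hhip effect was 0.54 and -0.63, and the P60 value lay near the -0.76 of P24. Anagen skin came from males and P20 skin from females, and the anagen libraries were deeper, so the stage cannot be told apart from sex and depth.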

How the results depend on the processing

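Of the log2 fold changes refitted under other settings, 603 kept their direction and side of the threshold, 10 reversed, 27 passed it anew and 8 lost it, and with 1 library left out these counts were 644, 33, 16 and 27. The causes of the changes were not tested. At P20 the count of called members went from 0 to 1 (Gli1) with a pseudocount of 10, a minimum of 10 in every library, limma with TMM, both edgeR fits and DESeq2. At P28 it went from 1 to 3 with DESeq2 and with a single fit over 24 libraries, and from P24 to P28 it was 3 in controls with each of these, and 3 (DESeq2) and 0 (single fit) in dM1/2. At a threshold of 0.01 no member (0) stayed called at P24, at P28 or from P24 to P28 in dM1/2, and 1 (Gli2) stayed between anagen and telogen. DESeq2 called 2 members between P20 and P60. For the other pathway genes the count at P20 was 1 at the 0.01 threshold, 6 with DESeq2 and 0 with the single fit, and at P28 it was 9 at 0.01. The share of all genes called under these settings is not given here or in the paragraphs below. These counts are therefore not read as results about the members.

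The labels do not say whether replicate numbers pair the libraries. Same-numbered libraries did not all correlate above 0.1 in any comparison, but with 3 libraries per group this cannot exclude a pairing. At P20 the same-numbered values were 0.23, 0.082 and 0.12. With the number as a replicate block, 2 members were called at P20, 0 at P24, 1 at P28, 0 at P60, 2 from P24 to P28 in dM1/2, 0 in controls, 3 between anagen and telogen and 1 between P20 and P60, with 4 other pathway genes at P20.

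Values near 0 turned sign under other scalings. Smo at P20 was 0.0022 (limma with TMM) and 0.00029 (edgeR with TMM), Boc at P60 was -0.0063 and -0.013 in those fits, -0.0040 with edgeR on DESeq2 size factors and -0.0038 with DESeq2, and anagen against telogen in dM1/2 was 0.032 and 0.031 for Smo and 0.0096 and 0.012 for Gli3 in the TMM fits.

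With 1 library left out, the count of called members ranged from 0 to 1 at P20, 0 to 2 at P24, 0 to 4 at P28, 0 to 3 from P24 to P28 in dM1/2 and 0 to 1 between P20 and P60, and that of other pathway genes from 0 to 7 at P20 and 10 to 22 at P28. The log2 fold change ranged at P20 from -0.28 to 0.025 (Boc) and -0.060 to 0.034 (Smo), at P24 from -0.30 to 0.26 (Cdon), and at P28 from -1.31 to 0.51 (Cdon), -0.71 to 0.30 (Gas1) and -0.55 to 0.0030 (Ptch1). At P60 it ranged from -0.10 to 0.13 (Boc), -0.019 to 0.33 (Gas1), -0.11 to 0.20 (Gli3) and -0.11 to 0.092 (Smo). The anagen minus telogen effect ranged from -0.87 to 0.041 (Cdon), -0.48 to 0.021 (Gas1) and -0.092 to 0.20 (Gli1), and anagen against telogen in dM1/2 from -0.053 to 0.049 (Smo) and -0.11 to 0.065 (Gli3). Telogen libraries had fewer reads than anagen libraries. The standard error of the genotype effect on Gli1 was 0.13 at P20, 0.29 at P24 and 0.27 at P60. That of Hhip was 0.19, 0.20 and 0.20, and that of Boc was 0.15 at P20 and 0.14 at P24. The part of depth in these was not tested.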
